A study of Mus musculus with 12 samples.

Results

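The T cell fate transcription factors described here are 10 genes whose products set how a CD8 T cell differentiates: Tbx21, Eomes, Runx3, Id2, Id3, Bcl6, Gata3, Foxo1, Zeb2 and Bcl11b. They were chosen by name, and each matched 1 row of the 23937 genes measured. The 12 libraries of mouse CD8 T cells fall into 4 groups of 3: brain 30 days after stroke (day 30 brain), brain 3 days after stroke (day 3 brain), naive mouse brain (naive brain) and naive mouse blood (naive blood). Cells were sorted by flow cytometry into lysis buffer and the RNA was amplified by SMART-Seq v4, a method for very small inputs. The labels name brain or blood as the tissue while the protocol speaks of spleens, and the groups here follow the labels. Strain, age, sex and the way stroke was induced were not stated in the labels, and no genotype or treatment other than stroke is named. Whether the samples of a group are separate mice is not stated, and the p-values therefore measure only the spread among these samples, which may be technical. In sorted bulk RNA, fewer cells of a type and less RNA per cell cannot be told apart.

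Naive CD8 T cells are held in a quiescent, recirculating state by factors such as Foxo1, and antigen drives them towards short-lived killer cells or long-lived memory cells. T-bet (the product of Tbx21), Zeb2 and Id2 are known to favour the killer fate, whereas Eomes, Id3, Bcl6 and Foxo1 are known for their roles in memory. Runx3, Bcl11b and Gata3 act earlier, in the choice and upkeep of T cell lineage, and Runx3 is also known to support CD8 T cells that reside in tissues.

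Id2 and Runx3 were the members that passed the test between groups, and the promoters of these genes are shown for that reason. The sequences are those of RefSeq on the GRCm38.p6 assembly, from 250 bases before to 50 bases after a start of transcription, written 5′ to 3′ along the gene. The Id2 window, chr12:25096043-25096342 on the minus strand, holds 1 E-box, the motif CANNTG that E proteins bind and whose use Id proteins prevent, here in capitals. Runx3 has a distal promoter, chr4:135120395-135120694, and a proximal one, chr4:135152295-135152594, both on the plus strand. In the Runx3 windows, capitals mark the Runx motif TGTGGT, read as ACCACA on the other strand.
Id2: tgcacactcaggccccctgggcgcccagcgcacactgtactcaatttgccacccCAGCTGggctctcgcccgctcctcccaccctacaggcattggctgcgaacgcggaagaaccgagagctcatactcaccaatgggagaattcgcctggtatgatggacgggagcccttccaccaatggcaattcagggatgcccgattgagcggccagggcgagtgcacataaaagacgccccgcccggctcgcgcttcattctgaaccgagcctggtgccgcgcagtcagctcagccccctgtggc
Runx3 distal: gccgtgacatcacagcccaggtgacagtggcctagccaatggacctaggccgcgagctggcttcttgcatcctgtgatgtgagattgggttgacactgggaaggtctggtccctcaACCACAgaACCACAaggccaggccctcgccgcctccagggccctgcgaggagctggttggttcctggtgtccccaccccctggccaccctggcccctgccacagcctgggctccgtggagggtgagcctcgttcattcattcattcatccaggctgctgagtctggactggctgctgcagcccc
Runx3 proximal: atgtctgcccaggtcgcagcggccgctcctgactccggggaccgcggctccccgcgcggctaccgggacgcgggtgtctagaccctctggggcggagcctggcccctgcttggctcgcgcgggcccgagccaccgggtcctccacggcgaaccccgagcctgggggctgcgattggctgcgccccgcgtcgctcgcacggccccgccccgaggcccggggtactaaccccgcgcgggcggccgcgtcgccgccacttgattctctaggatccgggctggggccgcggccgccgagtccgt
The distal Runx3 window holds 2 Runx motifs close together, and the proximal window holds 0. Of 32851 RefSeq promoter windows of this length, 72.3% held an E-box and 16.8% a Runx motif, both strands counted. The 10 genes had 15 windows, of which 7 windows of 6 genes held an E-box. The E-box form CACCTG, which Zeb proteins bind and which is also counted among the E-boxes, lay in the distal Runx3 window and in that of Tbx21, and in 20.2% of all windows. None of the 15 windows held TCACACC, a T-box sequence found in 3.98% of all windows, the Gata sequence AGATAA, found in 11.2%, or the forkhead sequence GTAAACA, found in 3.65%. A match or its absence describes the letters of these windows only.

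In the GENCODE vM21 annotation of GRCm38 (mm10), Id2 lies on the minus strand of chromosome 12 at 25093799 to 25097140, and Runx3 on the plus strand of chromosome 4 at 135120652 to 135177990. Id3 lies on chromosome 4 at 136143497 to 136145755 and Bcl11b on chromosome 12 at 107910403 to 108003602. Tbx21 lies on chromosome 11 at 97098071 to 97115331, Eomes on chromosome 9 at 118478212 to 118486132, Bcl6 on chromosome 16 at 23965052 to 23988852 and Foxo1 on chromosome 3 at 52268336 to 52353221. Zeb2 and Gata3 both lie on chromosome 2, at 44983632 to 45117395 and at 9857078 to 9890034. Zeb2 overlaps Zeb2os and Mir5129, which took 513 and 207 reads over the 12 libraries against 3261 for Zeb2, and Gata3 overlaps 4930412O13Rik and 9230102O04Rik, with 82 and 34 reads against 2363 for Gata3. The strand setting of the counting is not given, so reads of these overlapping genes cannot be told apart.

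The libraries held 1104490 to 21014171 reads, and the floor of 3 reads lay between 0.298 and 1.65 CPM, the deposited counts per-million after scaling of library sizes. T cell marker genes (9 of a list of 10, Cd3d, Cd3e, Cd3g, Cd247, Cd8a, Cd8b1, Lck, Lat and Cd2) all had reads in every library. They took 0.443% to 1.20% of the reads in day 30 brain, 0.0666% to 0.219% in day 3 brain, 0.596% to 0.811% in naive brain and 0.307% to 0.443% in naive blood, so the day 3 libraries lay below all others. Genes that mark microglia, the brain's own macrophages, took 0.171% to 0.518% in day 30 brain, 0.271% to 1.36% in day 3 brain, 0.959% to 2.03% in naive brain and 0.0177% to 0.0418% in naive blood, with none of the 10 at 0 in any library. Markers of monocytes and macrophages took 0.265% to 0.424%, 0.304% to 0.936%, 0.255% to 0.342% and 0.0480% to 0.165% of the reads in the same order of groups, and 1 of 7 was at 0 in 1 library. Ly6c2 was the largest of these in every library but day 3 brain 1, at 5827.5 of 6568.5 CPM in day 30 brain 1. Whether the Ly6c2 reads came from monocytes or from T cells was not tested. Dendritic cell markers took 0.0482% to 0.0718% in day 3 brain and 0.00473% to 0.0292% over the other 3 groups. Another difference lay in 1490 genes for receptors of smell, pheromones and taste, senses in which T cells have no known part. Day 30 brain 1, day 3 brain 1 and the 3 naive brain libraries had an unscaled CPM of 165 to 884 on them (low background), and the other 7 libraries had 2016 to 7884 (high background). All naive brain libraries are of low background and all naive blood libraries of high background, so tissue and background cannot be told apart in that comparison.

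Per kilobase of exon, Id2 was the highest of the 10 genes in every group, and Tbx21, Bcl6 or Zeb2 the lowest. Id2 averaged 775 CPM per kilobase in day 30 brain, 391 in day 3 brain, 719 in naive brain and 69.2 in naive blood. Runx3 came next in the 3 brain groups, with 32.3 CPM per kilobase in day 30 brain, 28.4 in day 3 brain and 52.3 in naive brain, while in naive blood Bcl11b came next with 16.4. The lowest mean was 1.98 CPM per kilobase for Zeb2 in day 30 brain, 3.26 for Tbx21 in day 3 brain, 0.891 for Bcl6 in naive brain and 1.28 for Zeb2 in naive blood. In day 30 brain the means of Runx3, Bcl11b and Eomes, at 32.3, 31.1 and 30.8 CPM per kilobase, lay closer together than their SDs of 15.1 to 17.3.

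**Figure D1:**
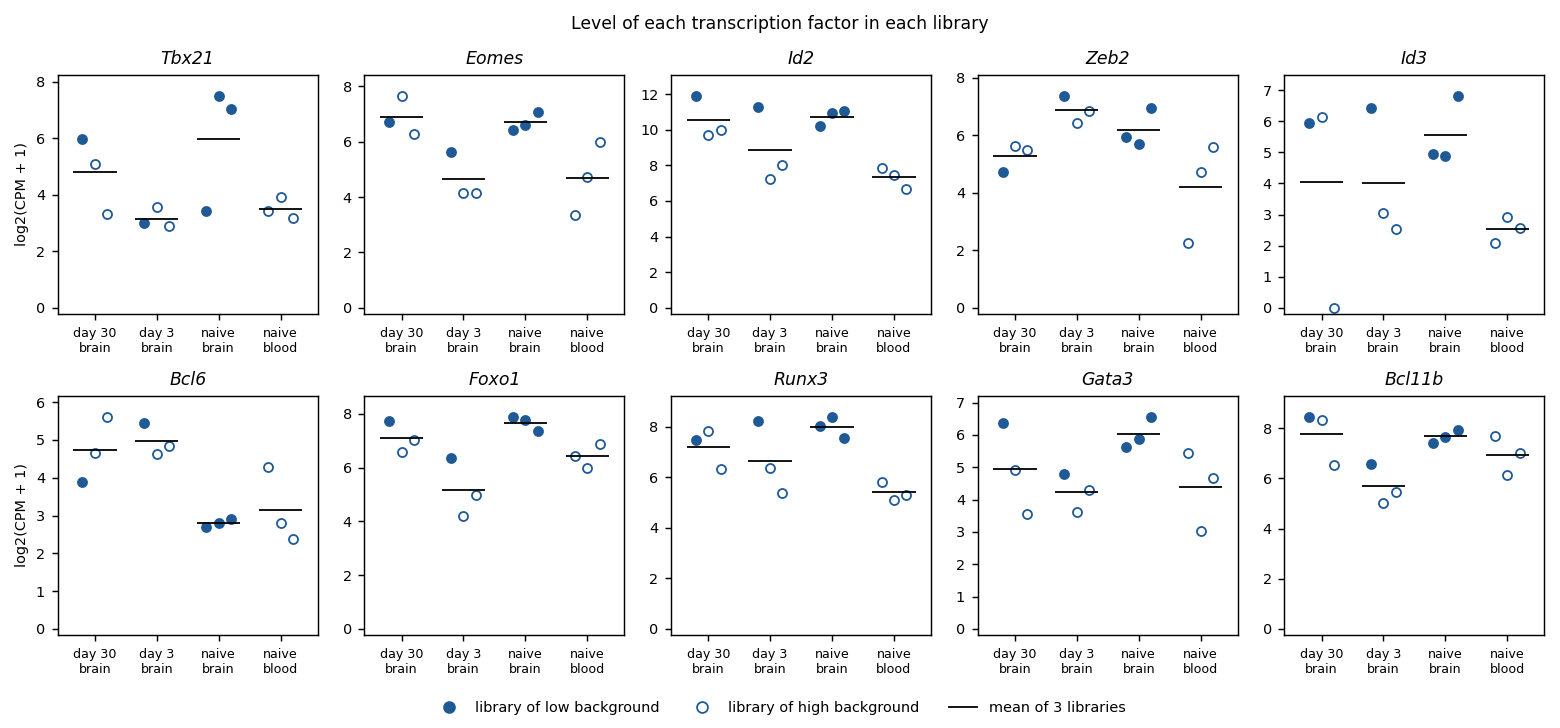
Level of each of the 10 transcription factors in each library, as log2(CPM + 1) on the vertical axis. Each point is a library, filled where it had few reads on sensory receptor genes (low background) and open where it had many, and bars are means of 3 libraries. Id2 sits above 100 CPM in every library, and Id3 has 1 library at 0.

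Id2 and Id3 encode proteins without a DNA-binding region of their own that sequester E proteins. Id2 measured 3836, 834 and 1000.3 CPM in day 30 brain, 2453, 151 and 259 CPM in day 3 brain, 1190.3, 1986 and 2083 CPM in naive brain, against 233, 172 and 101 CPM in naive blood. All day 30 and all naive brain libraries lay above all blood libraries, whereas day 3 brain overlapped every other group, with replicate 1 far above replicates 2 and 3. By limma's moderated test on log2(CPM + 1), with p-values adjusted by Benjamini and Hochberg over 22352 genes, Id2 was higher in naive brain than in blood by 3.41 ± 0.72 (SE; adjusted p = 0.000926). It was also higher in day 30 brain than in blood, by 3.20 ± 0.72 (adjusted p = 0.0100). Day 3 brain differed from naive blood by 1.52 ± 0.72 (adjusted p = 0.560), from naive brain by -1.89 ± 0.72 (adjusted p = 0.257), and day 30 brain from day 3 brain by 1.68 ± 0.72 (adjusted p = 0.692), none of which passed. Without day 3 replicate 1 the difference of day 3 from naive brain was -3.10 (adjusted p = 0.00337) and that of day 30 from day 3 brain 2.89 (adjusted p = 0.0131), and both passed. With limma's array weights the day 3 difference from naive brain also passed (-2.79, adjusted p = 0.00392).

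The Id2 difference of naive brain from blood passed with either edgeR or DESeq2 (3.35 and 2.80), but not once values were centred on the T cell markers (1.07, adjusted p = 0.0910). With a term for library background it was 0.56 (adjusted p = 0.9995). Only the stroke groups hold both background classes, so they alone set that term, and it cannot separate tissue from background here. The Id2 difference of day 30 brain from blood did not pass without day 30 replicate 1 (2.51, adjusted p = 0.143), without blood replicate 3 (2.87, adjusted p = 0.0779), among the high background libraries alone (2.51, adjusted p = 0.0750), with no filter on low values (3.20, adjusted p = 0.0676) or after centring on the T cell markers (1.65, adjusted p = 0.235). Microglia also use Id2, and microglia markers were higher in all brain groups than in blood, as given above, and their part in these differences was not tested.

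Id3 measured 60.7, 70.2 and 0 CPM in day 30 brain, 85.9, 7.28 and 4.82 CPM in day 3 brain, 29.8, 28.7 and 112 CPM in naive brain, against 3.24, 6.58 and 4.93 CPM in naive blood. The 0 in day 30 replicate 3 allows up to 1.35 CPM at 3 reads. All naive brain libraries lay above all blood libraries, and the 2 stroke groups spanned more than 1 order of magnitude each. No comparison of Id3 passed by limma on the deposited scale. Its largest difference was 3.03 ± 1.14 in naive brain against blood (adjusted p = 0.0843), and the day 30 and day 3 brain differences from blood were 1.51 ± 1.14 and 1.49 ± 1.14. The naive brain difference passed with array weights (3.16, adjusted p = 0.0409) and without day 30 replicate 3, the library at 0 (3.03, adjusted p = 0.0403).

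Runx3 encodes the factor that silences Cd4 and supports killer function in CD8 T cells. It measured 179, 227 and 79.0 CPM in day 30 brain, 302, 82.8 and 40.7 CPM in day 3 brain, 262, 337 and 186 CPM in naive brain, against 56.2, 33.5 and 38.0 CPM in naive blood. Every day 30 and naive brain library exceeded every blood library, and day 3 brain overlapped all groups. Runx3 was higher in naive brain than in blood by 2.59 ± 0.76 (adjusted p = 0.0228). With the background term, which the stroke groups alone set, the difference was 1.20 (adjusted p = 0.9995). The call did not hold with unscaled CPM (1.38, adjusted p = 0.122), quantile normalization (1.38, adjusted p = 0.244) or centring on T cell markers (0.25, adjusted p = 0.782). Nor did it hold without naive brain replicate 2 (2.38, adjusted p = 0.111), blood replicate 2 (2.43, adjusted p = 0.0788) or blood replicate 3 (2.52, adjusted p = 0.0647). Runx3 in day 30 brain differed from blood by 1.80 ± 0.76 (adjusted p = 0.371) and in day 3 brain from naive brain by -1.32 ± 0.76 (adjusted p = 0.424).

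Bcl11b, which keeps developing and mature cells in the T lineage, measured 348, 318 and 91.2 CPM in day 30 brain, 95.1, 31.4 and 42.8 CPM in day 3 brain, 171, 201 and 241 CPM in naive brain, against 204, 68.6 and 127 CPM in naive blood. All day 3 libraries lay below all naive brain libraries, and day 30 replicate 3 lay within the day 3 range. The day 3 difference from naive brain was -1.98 ± 0.74 (adjusted p = 0.244), and that of day 30 brain from day 3 brain was 2.08 ± 0.74 (adjusted p = 0.439). The day 3 difference from naive brain passed with limma's array weights (-2.34, adjusted p = 0.0241) and with the low background libraries of both stroke groups left out (-2.43, adjusted p = 0.0313), and did not pass by edgeR or DESeq2.

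Gata3, known for T helper differentiation and needed for the upkeep of CD8 T cells, measured 82.0, 28.9 and 10.8 CPM in day 30 brain, 26.9, 11.4 and 18.7 CPM in day 3 brain, 48.8, 58.1 and 93.4 CPM in naive brain, against 42.7, 7.13 and 24.6 CPM in naive blood. Naive brain lay above day 3 brain and above blood without overlap, and day 30 brain overlapped all groups. The day 3 difference from naive brain was -1.78 ± 0.91 (adjusted p = 0.394), and that of naive brain from blood was 1.64 ± 0.91 (adjusted p = 0.236).

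Tbx21 and Eomes encode the T-box factors that drive interferon gamma and the killing machinery. Tbx21 measured 62.3, 33.5 and 9.03 CPM in day 30 brain, 6.97, 10.9 and 6.43 CPM in day 3 brain, 9.69, 181 and 129.8 CPM in naive brain, against 9.73, 14.3 and 8.10 CPM in naive blood. Naive brain replicates 2 and 3 stood above every other library, while naive brain replicate 1 lay within the range of day 3 brain and of blood. The day 3 difference from naive brain was -2.83 ± 0.996 (adjusted p = 0.204), and it passed without naive brain replicate 1 (-4.12, adjusted p = 0.0428), with array weights (-3.31, adjusted p = 0.0250) and by DESeq2 (-3.17, adjusted p = 0.0218). The naive brain difference from blood was 2.47 ± 0.996 (adjusted p = 0.107), and it passed by edgeR (3.27, adjusted p = 0.0444), by DESeq2 (2.71, adjusted p = 0.0229), with array weights (3.07, adjusted p = 0.0198) and without naive brain replicate 1 (3.76, adjusted p = 0.0146).

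Eomes, the paralogue of Tbx21 that is linked to memory, measured 105, 202 and 76.8 CPM in day 30 brain, 48.8, 16.8 and 16.6 CPM in day 3 brain, 86.0, 97.2 and 133 CPM in naive brain, against 9.19, 25.8 and 62.7 CPM in naive blood. Every day 30 and naive brain library exceeded every day 3 and blood library. Eomes differed by 2.25 ± 0.83 between day 30 and day 3 brain (adjusted p = 0.471), by -2.07 ± 0.83 between day 3 and naive brain (adjusted p = 0.290) and by 2.20 ± 0.83 between day 30 brain and blood (adjusted p = 0.285). The day 3 difference from naive brain passed with array weights (-2.43, adjusted p = 0.0370). It differed by 0.18 ± 0.83 between day 30 and naive brain (adjusted p = 0.962). Natural killer cells also use both T-box factors, and 4 of their marker genes together took 0.0320% to 0.0544% of the reads in day 30 brain, 0.00544% to 0.00844% in day 3 brain, 0.00834% to 0.0208% in naive brain and 0.00489% to 0.0100% in blood, with Klrc1, which CD8 T cells also use, the largest of them in day 30 brain. The part of natural killer cells in these levels was not tested.

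Zeb2 encodes a zinc finger repressor that acts with T-bet in terminal effector cells and that macrophages also use. It measured 25.6, 48.7 and 44.3 CPM in day 30 brain, 164, 84.2 and 115 CPM in day 3 brain, 60.1, 50.3 and 121 CPM in naive brain, against 3.79, 25.2 and 47.5 CPM in naive blood. Day 3 brain lay above day 30 brain and blood without overlap, and day 30 brain lay below naive brain without overlap. The day 3 difference from blood was 2.69 ± 0.84 (adjusted p = 0.115), and it passed in a fit on the 2 groups alone (2.69, adjusted p = 0.0474) and with unscaled CPM (2.49, adjusted p = 0.0437). Day 30 brain differed from day 3 brain by -1.59 ± 0.84 (adjusted p = 0.900), and day 3 brain from naive brain by 0.70 ± 0.84 (adjusted p = 0.634). The monocyte and macrophage markers given above were highest in day 3 brain replicate 1, which also had the highest Zeb2, and their part in the Zeb2 level was not tested.

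Bcl6, a repressor known for follicular helper and memory precursor T cells, measured 13.8, 24.3 and 47.9 CPM in day 30 brain, 42.8, 23.7 and 27.8 CPM in day 3 brain, 5.42, 6.03 and 6.45 CPM in naive brain, against 18.4, 6.03 and 4.22 CPM in naive blood. All 6 stroke libraries lay above all 3 naive brain libraries, and the day 3 libraries also lay above blood. Bcl6 was the only member with a positive difference of more than 1 in both stroke groups against naive brain, at 1.92 ± 0.997 in day 30 brain (adjusted p = 0.581) and 2.18 ± 0.997 in day 3 brain (adjusted p = 0.360), and neither passed. By DESeq2 the day 3 difference was 2.81 (adjusted p = 0.0242). Bcl6 took 220 reads in all in day 30 brain and 239 in day 3 brain, against 135 in naive brain. The dendritic cell markers given above were highest in day 3 brain, and the part of other cell types in the Bcl6 level was not tested.

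Foxo1, which maintains Il7r and homing receptor genes in resting T cells, measured 211, 95.0 and 129 CPM in day 30 brain, 80.5, 17.3 and 30.5 CPM in day 3 brain, 236, 215 and 164 CPM in naive brain, against 84.9, 62.0 and 118 CPM in naive blood. Day 3 brain lay below day 30 brain and below naive brain without overlap. The difference of day 3 from naive brain was -2.50 ± 0.75 (adjusted p = 0.112), the smallest adjusted p among the members in that comparison. It passed without day 3 replicate 1 (-3.08, adjusted p = 0.0137), with array weights (-2.84, adjusted p = 0.00678) and by DESeq2 (-1.97, adjusted p = 0.0345). Day 30 brain differed from day 3 brain by 1.94 ± 0.75 (adjusted p = 0.571). Foxo1 was 1 of 8 members with a negative difference of day 3 from naive brain, and the T cell markers Cd8a, Cd3e and Lck were called lower there too, with differences of -2.76 ± 0.70, -3.95 ± 0.81 and -4.71 ± 0.75 (adjusted p = 0.0374, 0.00537 and 0.000262).

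**Figure D2:**
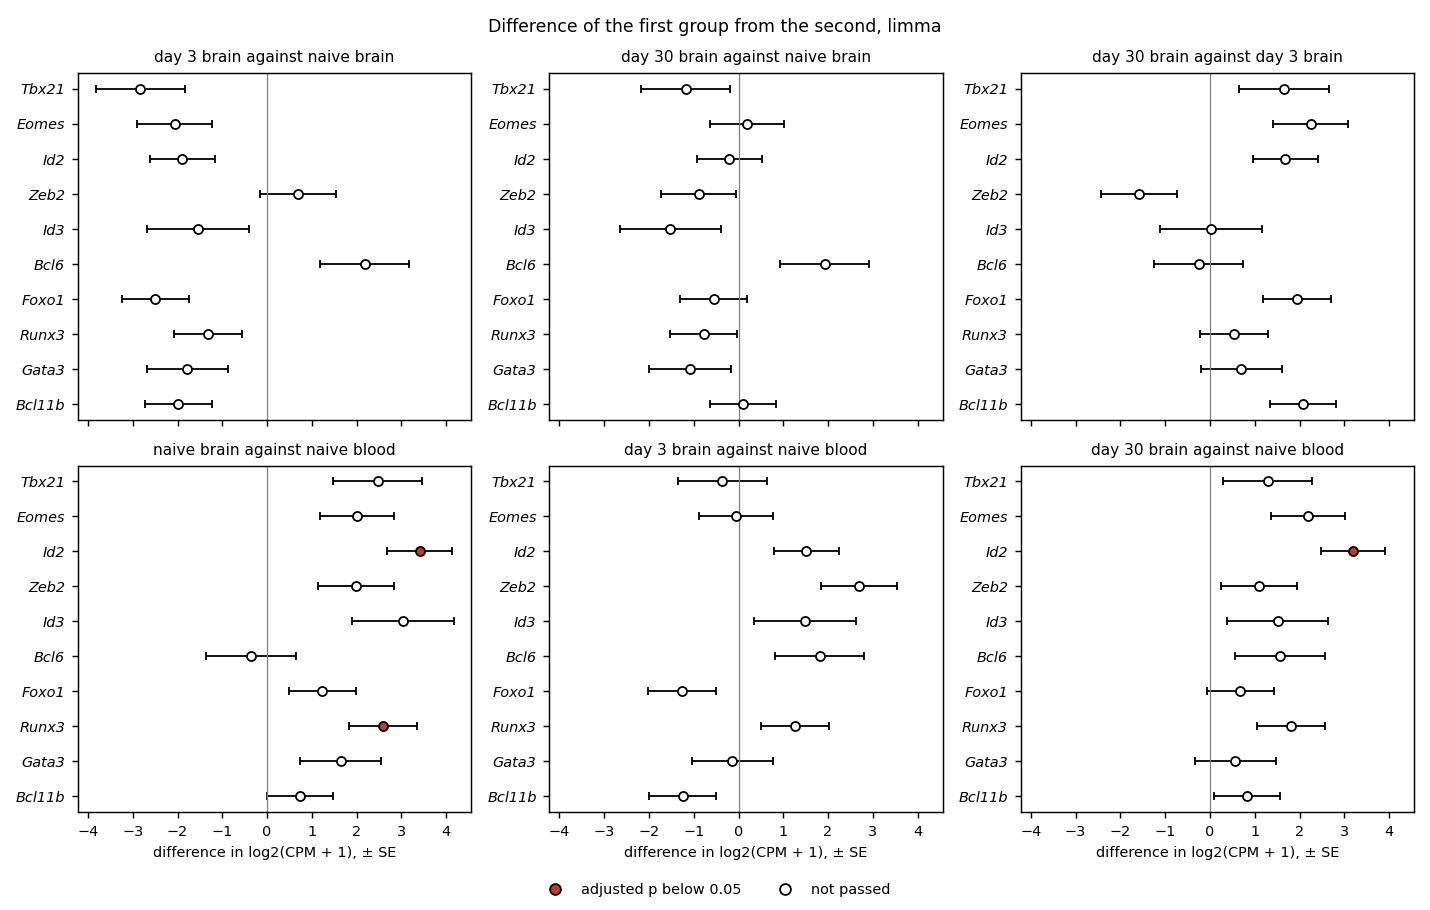
Difference in log2(CPM + 1) of the first group from the second for each transcription factor in 6 comparisons, as points with SE bars on the horizontal axis. Filled points passed an adjusted p of 0.05 by limma: Id2 and Runx3 in naive brain against naive blood, and Id2 in day 30 brain against naive blood.

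Counted over the 10 genes, day 3 brain against naive brain had 0 called by limma (0.716% of all genes), 0 by edgeR (0.0761%) and 3 by DESeq2 (4.47%). At an unadjusted p under 0.05 there were 6, against 12.8% of all genes. Of the 10, 4 lay lower and 1 higher without overlap of the 3 libraries with the other 3, against 17.3% of all genes in either direction. The median difference over the members was -1.84 and over all genes 0.50. Day 30 brain against naive brain had 0 called by limma (0.224% of all genes), edgeR (0.0268%) and DESeq2 (1.07%), and 0 at an unadjusted p under 0.05 (8.90%). There 1 member lay higher and 1 lower without overlap, against 13.2% of all genes, and the medians were -0.67 over the members and 0.19 over all genes. Day 30 brain against day 3 brain had 0 called by limma (0.255% of all genes), edgeR (0.157%) and DESeq2 (0.747%), and 4 at an unadjusted p under 0.05 (5.68%). Of the members 2 lay higher and 1 lower without overlap, against 9.65% of all genes, and the medians were 1.18 over the members and -0.15 over all genes.

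Against blood, naive brain had 2 members called higher by limma (7.59% of all genes in either direction), 3 by edgeR (5.27%) and 3 by DESeq2 (17.2%), and 6 at an unadjusted p under 0.05 (25.9%). In naive brain 7 members lay above blood without overlap, against 30.8% of all genes, and the medians were 2.003 over the members and -0.37 over all genes. Day 3 brain against blood had 0 members called by limma (1.18% of all genes), edgeR (1.28%) and DESeq2 (2.57%), and 2 at an unadjusted p under 0.05 (8.29%). Bcl6 and Zeb2 lay higher there without overlap, against 12.1% of all genes, and the medians were 0.61 over the members and 0.03 over all genes. Day 30 brain against blood had 1 member called by limma (0.711% of all genes), edgeR (0.640%) and DESeq2 (1.40%), and 3 at an unadjusted p under 0.05 (10.3%). Id2, Runx3 and Eomes lay higher without overlap, against 14.7% of all genes, and all 10 differences were positive, with medians of 1.40 over the members and -0.05 over all genes. The comparisons with naive brain share its libraries, as do those with blood.

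The scaling of the libraries moved these values. Centring each library on its T cell markers moved the median of all genes between day 3 and naive brain to 4.11 and that between naive brain and blood to -2.70, and the values that follow are to be read against these medians. On that scale 5 members were called higher in day 3 than in naive brain, where 86.9% of all genes were called, all of them higher, with Bcl6 at 5.78, Zeb2 at 4.30, Runx3 at 2.28, Id2 at 1.71 and Bcl11b at 1.62. Of these, Bcl6 and Zeb2 lay above the median of all genes, and Runx3, Id2 and Bcl11b, whose differences were negative on the deposited scale, lay below it. Unscaled CPM moved the median of all genes to 1.13 between day 3 and naive brain and to -1.05 between naive brain and blood.

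**Figure D3:**
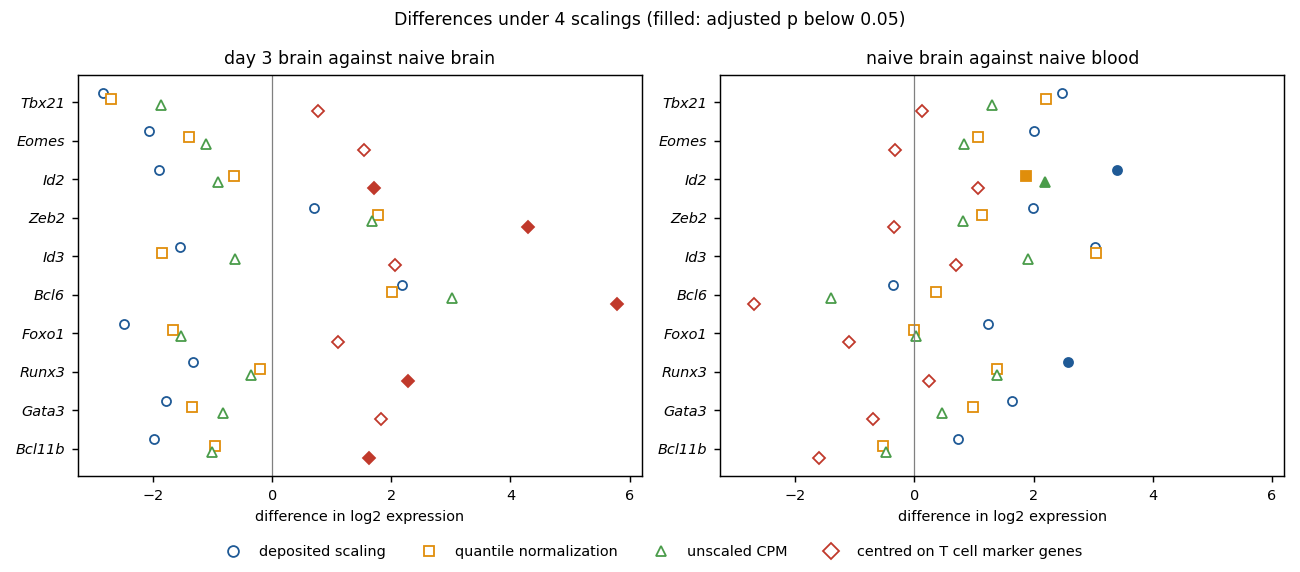
Difference in log2 expression (horizontal axis) of each transcription factor under 4 scalings, for day 3 brain against naive brain (left) and naive brain against naive blood (right). Each point is 1 scaling and is filled where the adjusted p was below 0.05. Centring on T cell marker genes shifts all day 3 differences up and all naive brain differences down, with Id2 at 1.71 in day 3 brain against naive brain and at 1.07 in naive brain against blood.

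Ratios within a library do not change with a scaling factor, apart from the 1 CPM added to each value, but can change with its cell makeup. The ratios of 4 pairs of paralogues or antagonists were compared in 8 exact two-sided permutation tests. The log2 ratio of Bcl6 to Prdm1, which encodes the repressor Blimp-1 that opposes Bcl6, was -0.48, -0.13 and 3.15 in day 30 brain, 2.52, 1.29 and 0.26 in day 3 brain, -1.55, -2.61 and -2.71 in naive brain, and 1.18, -0.83 and -1.53 in naive blood. All 6 stroke libraries lay above all 3 naive brain libraries. The stroke mean was 1.101 ± 1.48 (SD, n = 6) and the naive brain mean -2.29 ± 0.64 (SD, n = 3), a difference of 3.39 with an exact permutation p = 0.0238, the smallest that 6 against 3 can give, and an adjusted p = 0.190 over the 8 tests. This test treats the 6 stroke libraries as independent, although day 30 and day 3 libraries of the same number were counted as paired. Among the low background libraries alone the difference was 3.31 (adjusted p = 0.800, exact permutation test). That subset holds 2 stroke and 3 naive brain libraries, too few for this test to pass at any difference.

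The log2 ratio of Zeb2 to its paralogue Zeb1, which is tied to memory, was 0.84, 0.20 and -0.79 in day 30 brain, 0.97, 2.84 and 2.003 in day 3 brain, -0.63, -1.44 and 1.20 in naive brain, and -4.34, 1.51 and -0.54 in naive blood. The stroke and naive brain groups overlapped, and their difference was 1.30 (exact permutation p = 0.238, adjusted p = 0.619). Tbx21 to Eomes differed by -1.06 between stroke and naive brain (exact permutation p = 0.310, adjusted p = 0.619), with naive brain spread over -3.03, 0.89 and -0.04. It was -2.21 without naive brain replicate 1 and -0.25 without naive brain replicate 2. Id2 to Id3 differed by 0.48 (exact permutation p = 0.929, adjusted p = 0.929), and Id2 exceeded Id3 in all 12 libraries. Between all 9 brain libraries and the 3 of blood, the differences were -0.25 for Tbx21 to Eomes, 0.70 for Id2 to Id3, 1.70 for Zeb2 to Zeb1 and 0.36 for Bcl6 to Prdm1 (exact permutation, adjusted p = 0.619 to 0.914). The Zeb2 to Zeb1 difference was 0.09 without blood replicate 1 and 3.01 without blood replicate 2.

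**Figure D4:**
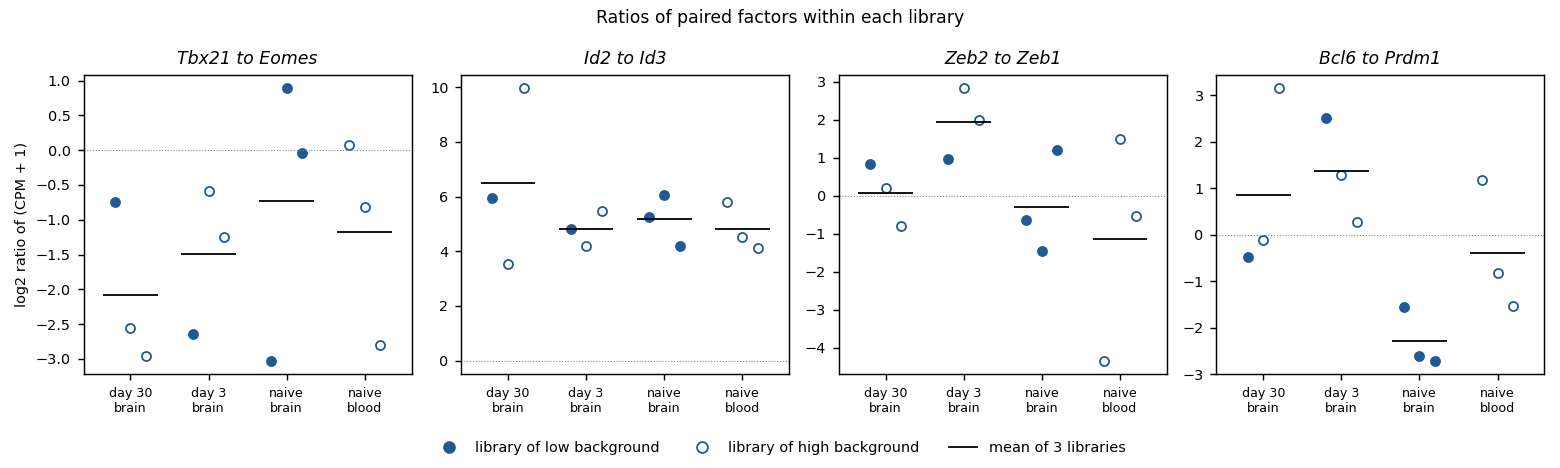
Log2 ratio of 4 pairs of factors in each library, computed from CPM + 1. Each point is a library, filled for low and open for high background, and bars are means of 3 libraries. In the Bcl6 to Prdm1 panel all stroke libraries lie above all naive brain libraries.

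Of 30 other factors of T cell fate, 29 were analysed. In naive brain against blood 4 were called higher and 0 lower, in day 3 brain against blood 2 higher and 2 lower, in day 30 brain against blood 1 higher, in day 3 brain against naive brain 3 lower (0 by edgeR and 5 by DESeq2 in either direction), by limma in each case. Limma and edgeR called 0 in day 30 brain against naive brain (1 by DESeq2, 2 at an unadjusted p under 0.05) and 0 in day 30 brain against day 3 brain (3 by DESeq2, 8 at an unadjusted p under 0.05). Of all genes, limma called 7.59%, 1.18%, 0.711% and 0.716% in the first 4 of these comparisons, and in the fourth edgeR called 0.0761% and DESeq2 4.47%. In the last 2, limma called 0.224% and 0.255% of all genes, edgeR 0.0268% and 0.157%, and DESeq2 1.07% and 0.747%. At an unadjusted p under 0.05 there were 8.90% and 5.68%. Over the same 29 genes the median difference was 0.85 in naive brain against blood, -0.05 and 0.32 in day 3 and day 30 brain against blood, -1.12 and -0.58 in day 3 and day 30 brain against naive brain, and 0.25 in day 30 against day 3 brain.

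Among 7 effector factors, Bhlhe40, a repressor linked to cytokine production and tissue residency, was higher than blood in all 3 brain groups. It measured 585, 226 and 163 CPM in day 30 brain, 764, 149 and 187 CPM in day 3 brain, 303, 692 and 1244 CPM in naive brain, against 3.79, 28.0 and 13.7 CPM in naive blood. No brain library overlapped blood, and the differences were 4.46 ± 0.77 in day 30 brain, 4.46 ± 0.77 in day 3 brain and 5.66 ± 0.77 in naive brain (adjusted p = 0.000234, 8.15e-05 and 2.03e-07). Stat4, which relays interleukin-12 signals, was lower in day 3 brain than in naive brain, with a difference of -2.71 ± 0.71 (adjusted p = 0.0435). T cell markers were called lower there too, as given above, and the part of the T cell share in the Stat4 difference was not tested.

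Of the 3 E protein partners of Id proteins, Tcf4 was called. It measured 29.0, 175 and 87.2 CPM in day 30 brain, 227, 362 and 552 CPM in day 3 brain, 189.9, 206 and 199.5 CPM in naive brain, against 8.65, 19.2 and 29.2 CPM in naive blood. Tcf4 exceeded blood by 4.31 ± 0.76 in day 3 brain (adjusted p = 0.000139) and by 3.46 ± 0.76 in naive brain (adjusted p = 0.00148). Tcf4 is also known as a factor of plasmacytoid dendritic cells. The dendritic cell markers given above were highest in day 3 brain, but that list was not chosen to mark plasmacytoid cells. The part of dendritic cells of any kind in the Tcf4 level was not tested.

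Among 10 memory and quiescence factors, Lef1 and Satb1, both factors of naive T cells, were lower in day 3 brain than in blood, with differences of -3.67 ± 0.70 and -2.84 ± 0.69 (adjusted p = 0.000514 and 0.0135). Lef1 measured 77.7, 20.9 and 48.2 CPM in day 3 brain and 885, 358 and 546 CPM in naive blood. Klf2, which controls exit from tissues, and Stat3 were higher in naive brain than in blood, by 3.001 ± 0.72 and 2.19 ± 0.72 (adjusted p = 0.00411 and 0.0463). Among 10 lineage factors, Tox and Ets1 were lower in day 3 brain than in naive brain, with differences of -3.21 ± 0.82 and -2.71 ± 0.71 (adjusted p = 0.0401 and 0.0473). Tox, a factor of CD8 lineage development and chronic stimulation, measured 16.5, 5.004 and 11.8 CPM in day 3 brain and 94.5, 110.5 and 98.4 CPM in naive brain. T cell markers took a smaller share of the reads in day 3 brain than in naive brain or blood, as given above. The part of that share in the day 3 differences of these factors was not tested.

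Known target genes of the T-box factors, Runx3 and Foxo1 were counted by limma. Of 5 targets of Tbx21 and Eomes, 4 were higher in naive brain than in blood, 2 in day 30 brain and 1 in day 3 brain, where 7.59%, 0.711% and 1.18% of all genes were called. Against blood, edgeR called 3 of the 5 in naive brain, 2 in day 30 brain and 1 in day 3 brain, and DESeq2 3, 3 and 2. In day 3 brain 2 were lower than in naive brain, where 0.716% of all genes were called. There edgeR called 0 of the 5 (0.0761% of all genes) and DESeq2 1 (4.47%). The T cell markers Cd8a, Cd3e and Lck were called lower there too, as given above. The part of the T cell share in these day 3 differences was not tested. Ifng, which encodes interferon gamma, measured 794, 38.6 and 114 CPM in day 30 brain, 139.8, 3.18 and 26.8 CPM in day 3 brain, 503, 363 and 468 CPM in naive brain, against 9.19, 4.39 and 1.06 CPM in naive blood. It exceeded blood by 4.99 ± 0.94 in day 30 brain and 6.51 ± 0.94 in naive brain, and was lower in day 3 than in naive brain, with a difference of -4.12 ± 0.94 (adjusted p = 0.00105, 7.76e-07 and 0.0155).

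Cxcr3, a chemokine receptor of effector cells, exceeded blood by 5.34 ± 0.83 in day 30 brain, 3.80 ± 0.83 in day 3 brain and 6.56 ± 0.83 in naive brain (adjusted p = 3.02e-05, 0.00375 and 3.28e-08). Gzmb, which encodes granzyme B, and Il2rb, an interleukin-2 receptor chain, exceeded blood in naive brain by 3.81 ± 0.92 and 3.63 ± 0.80 (adjusted p = 0.00402 and 0.00149). Il2rb was lower in day 3 than in naive brain, with a difference of -3.19 ± 0.80 (adjusted p = 0.0335). Of the 2 Runx3 targets, Cd8a was higher in naive brain than in blood by 2.53 ± 0.70 (adjusted p = 0.0157), and Itgae was not called in any comparison. Cd8a is also among the T cell markers, which took more of the reads in naive brain than in blood, as given above. The part of Runx3 in the Cd8a level was not tested. Of 4 Foxo1 targets, 0 were called by limma or edgeR in any comparison, DESeq2 called 1 in day 3 brain against blood, and 0 to 2 a comparison had an unadjusted p under 0.05.

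The genes most like each member over the 12 libraries were taken by Pearson's r of log2(CPM + 1) among 8019 genes, as a description in which all genes share the libraries' depth, background and cell makeup. Foxo1 was most like Zap70, a T cell receptor kinase (r = 0.98), and Nkg7, a granule protein gene (r = 0.96). Bcl11b was most like Asb13 (r = 0.93) and Cd3g, a CD3 chain (r = 0.93). Id2 was most like Lamtor4 (r = 0.96) and Sh3bgrl3 (r = 0.95), Id3 like Lypla1 (r = 0.96) and Tacc1 (r = 0.95), and Gata3 like Sept1 (r = 0.95) and Glipr2 (r = 0.95). Eomes was most like Ube3a (r = 0.96) and Map3k7 (r = 0.92), Tbx21 like Tradd (r = 0.94) and Itpk1 (r = 0.93), and Runx3 like Eprs (r = 0.94) and Wnk1 (r = 0.93). Zeb2 was most like Pirb, an inhibitory receptor of myeloid and B cells (r = 0.94), and Pold1 (r = 0.91), and Bcl6 like Rgs18 (r = 0.87) and Dab2 (r = 0.79), the lowest values among the 10. Among the genes named here, T cell receptor genes thus stood beside Foxo1 and Bcl11b, and beside none of the other members.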

How the data were processed

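CD8 T cell RNA was measured in 12 libraries, 4 groups of 3 by the sample labels. The submitters' processing notes name FastQC 0.11.2, STAR 2.5.3a, featureCounts of Subread, edgeR and the mm10 build. Not given in the sources used here are the annotation, strand setting and filters. The authors deposited, as signal, counts per-million (CPM) on library sizes multiplied by scaling factors. Every value was a whole multiple of 1 read (100% whole to within 1e-06 reads), which gave the depth of each library. The kit adds no molecular identifiers, so floors of 3 reads cover counting error only.

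The test was limma 3.58.1 with a trend (R 4.3.3), on log2(CPM + 1) of all 12 libraries, for the 22352 genes that reached 1 CPM in 3 or more of them. Within each of 6 comparisons, two-sided p-values were adjusted over all these genes by the Benjamini-Hochberg method (threshold 0.05). The script was tested on simulated data. The recovered reads were also tested with edgeR 4.0.16 (quasi-likelihood) and DESeq2 1.42.0. The plan had assumed plain CPM, and its test was kept for the scaled signal. Ratios of members were tested by exact permutation.

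The members and gene lists were chosen with earlier results of these data known. All 10 members are named. Up to 4 genes a list are named by the number of comparisons passed and then by size, and the 2 most alike genes per member are named among genes with a mean of at least 20 CPM, leaving out members, predicted loci and pseudogenes. The split into 5 low and 7 high background libraries, at 1335 unscaled CPM on sensory receptor genes, was set at the widest gap in these data. Replicate numbers come from the labels. Day 30 and day 3 libraries of the same number deviated together from their group means (r over genes of 0.530, 0.284 and 0.165, each above the limit of 0.1) and count as paired. High background libraries of different number did so too (0.214 for day 30 replicate 2 with day 3 replicate 3, 0.180 for 3 with 2), so pairing and background cannot be told apart. Other comparisons did not meet the limit. Apart from the replicate block, the limma, edgeR and DESeq2 tests of day 30 against day 3 brain took the libraries as unpaired. Alternatives were pseudocounts of 0.1 and 5, no filter, 3 other scalings, array weights, a replicate block, a background term, fits within a background class or on 2 groups alone, and single libraries left out. Leaving out the 2 low background stroke libraries was added after the data were seen. RefSeq promoter windows were matched by symbol for all 10 members.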

Additional observations from a re-analysis of the deposited data

Results flagged for a closer look

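A member was flagged where every day 3 library lay on the same side of a naive mean and every day 30 library on the opposite side. Zeb2 had differences of opposite sign from naive brain at the 2 times after stroke, and neither passed by limma. They were -0.89 ± 0.84 in day 30 brain (adjusted p = 0.758) and 0.70 ± 0.84 in day 3 brain (adjusted p = 0.634). By that rule all 3 day 30 libraries lay below the naive brain mean and all 3 day 3 libraries above it. The difference of day 30 from day 3 brain was -1.59 ± 0.84 (limma, adjusted p = 0.900), so the tested difference did not pass. Foxo1 had differences of opposite sign from naive blood, and neither passed by limma. They were 0.68 ± 0.75 in day 30 brain (adjusted p = 0.815) and -1.26 ± 0.75 in day 3 brain (adjusted p = 0.752). By the same rule all 3 day 30 libraries lay above the blood mean and all 3 day 3 libraries below it. The difference of day 30 from day 3 brain was 1.94 ± 0.75 (limma, adjusted p = 0.571), which did not pass.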

How the results depend on the processing

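No member was called between day 30 and naive brain under any alternative run, where 0.00% to 2.77% of all genes were called. Between day 3 and naive brain 0 members were called in the main fit. With array weights 5 were called, all lower (9.41% of all genes). DESeq2 called 3, of which 1 was higher and 2 lower (4.47%). With the 2 low background stroke libraries left out 3 were called, all lower (4.91%). After centring on T cell markers 5 were called, all higher (86.9%). With single libraries left out 0 to 2 were called, 2 without day 3 replicate 1 (3.02%) and 1 without naive brain replicate 1 (0.501%). After that centring Runx3, Id2 and Bcl11b reversed to 2.28, 1.71 and 1.62, by construction of a scale on which the T cell markers average 0. Between day 30 and day 3 brain 3 members were called lower after the centring (41.8% of all genes, all lower), with Runx3 reversed to -2.28. With single libraries left out 0 to 1 were called there (Id2, 2.89, without day 3 replicate 1, where 0.516% of all genes were called). Between naive brain and blood 2 were called in the main fit. Unscaled CPM gave 1 (6.96% of all genes), quantile normalization 1 (3.15%), the centring 0 (24.6%) and the background term 0 (0.157%). Array weights gave 4 (18.7%). With single libraries left out 1 to 3 were called. There was 1 without naive brain replicate 2 (4.06%), blood replicate 2 (5.40%) or blood replicate 3 (6.34%). There were 3 without naive brain replicate 1 (8.88%) or day 30 replicate 3 (8.04%). The stroke groups alone set the background term, so it cannot separate tissue from background in that comparison. Against 0 called between day 3 brain and blood, 1 was called with unscaled CPM (2.56% of all genes), 1 on the 2 groups alone (1.70%) and 3 after the centring (6.24%). Against 1 called between day 30 brain and blood, 0 were called with no filter (0.384% of all genes), after the centring (0.259%) and among high background libraries (0.206%). With single libraries left out 0 to 1 were called (0 without day 30 replicate 1, 0.391%, or blood replicate 3, 0.886%). With the replicate block 2 members were called between naive brain and blood (8.70% of all genes) and 1 between day 30 brain and blood (1.32%). In the other 4 comparisons 0 were called (0.514% to 1.77%). That block joined libraries of the same number in all 4 groups, so it cannot show what pairing day 30 with day 3 alone would change. The Id2 to Id3 difference between stroke and naive brain, 0.48, was -0.018 with a pseudocount of 5 and -0.38 to 0.92 with single libraries left out. The differences of all brain from blood then ran from -0.20 to 1.15 for Bcl6 to Prdm1 and from -1.06 to 0.38 for Tbx21 to Eomes. The cause of the other changes was not tested. Over all genes the number called between day 3 and naive brain was 160, and it ran from 5 with the background term to 19415 after the centring. Depth limits the weakest members, with 0 Id3, 7 Zeb2, 11 Bcl6 and 12 Tbx21 reads in their poorest libraries.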
